A study of Homo sapiens with 12 samples.

Results

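The EPHA receptor family is described here by 9 genes, EPHA1 to EPHA8 and EPHA10, taken by their symbol from the 26641 genes of the gene count table. EPHA7 has an LTR5HS, an endogenous retroviral long terminal repeat of an ape-specific class, at a distance beyond its 3′ end. The other members served as the contrast. NCCIT, a human embryonal carcinoma cell line, carried a doxycycline-inducible dCas9 fused to VPR, an activation domain (CRISPRa), or to KRAB, a repression domain (CRISPRi). Each fusion was combined with 1 of 3 guide arrays. The LTR5HS Sp array carried guides to LTR5HS on the S. pyogenes scaffold that the fusion binds (recruitment), the LTR5HS Sa array carried guides to the same elements on the S. aureus scaffold, and the nontarget Sp array had no LTR5HS target. The latter arrays together were the control. All 6 lines had doxycycline for 4 days, and 2 biological replicates of each gave 12 libraries of polyA RNA.

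Fusions and arrays were integrated with the PiggyBac transposon, and each fusion and array combination was 1 line, so that an array and its line cannot be told apart. Library totals ran from 13601701 to 69797411 counts, the highest being dCas9-KRAB nontarget Sp replicate 2 and the next 24840708. A floor of 3 counts was worth 0.0462 to 0.233 CPM (counts scaled to library size after TMM normalization), depending on the library, and covers counting error only. The 9 NCCIT markers (POU5F1, NANOG, SOX2, LIN28A, DPPA4, TDGF1, SALL4, L1TD1 and TNFRSF8) were above 3 counts in all 12 libraries. Their summed level was 3905 to 4805 CPM in dCas9-KRAB control libraries and 842 to 1510 CPM in dCas9-VPR control libraries, and each of the 9 was lower with dCas9-VPR (edgeR, median log2 difference -2.27). The part of these levels in the results was not tested. In bulk RNA, fewer cells that express a gene and less RNA per cell cannot be told apart.

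Eph receptors are receptor tyrosine kinases that bind ephrins on the surface of neighbouring cells. EPHA receptors mainly bind the ephrin-A ligands, which a lipid anchor holds in the membrane, whereas EPHB receptors mainly bind the transmembrane ephrin-B ligands. The signal runs into both cells and is known for repulsion, cell sorting and axon guidance.

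EPHA7 lies on the minus strand at chr6:93240020-93419687 (hg38, GENCODE 44). The pair of guides with which the study deleted its LTR5HS bracket chr6:93173331-93174431, and within it an LTR5HS of 965 bases was found at chr6:93173366-93174330. This element is intergenic, 246 kb downstream of the EPHA7 start and 66.2 kb beyond the 3′ end of the gene. Of the 12 guides of the LTR5HS array, 3 matched it without a mismatch next to an NGG protospacer adjacent motif (PAM). Matches with mismatches were not searched. The 3 sites are shown because they are the exact matches of the array in the element, and the deletion guides are shown because they define the element. Each is written 5′ to 3′ on its own strand, with the PAM in capitals.
LTR5HS-7, minus strand, chr6:93173690-93173708: aaccttggacaataccTGG
LTR5HS-4, plus strand, chr6:93173768-93173786: agcccgacacccgtaaGGG
LTR5HS-2, plus strand, chr6:93173933-93173951: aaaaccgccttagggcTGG
Left deletion guide, minus strand, chr6:93173308-93173330: ctctttctggtgttctcacgTGG
Right deletion guide, minus strand, chr6:93174429-93174451: agctgccatacaaagtatcaCGG

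The 3 array guides were not particular to this locus. LTR5HS-7 had 525 exact matches in the genome, LTR5HS-4 had 322 and LTR5HS-2 had 294, whereas either deletion guide had 1. A sequence search found 555 LTR5HS-like copies, with a median of 4 array guides matched per copy. The EPHA7 element, with 3, was among the 158 copies (28.5%) that had at most 3. The search does not separate LTR5HS from related LTR5 elements.

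None of the other members lay as close to a copy as EPHA7. EPHA5 (chr4:65319563-65670495, minus strand) was 689 kb from its nearest copy, measured from the start of the gene, and EPHA2 (chr1:16124337-16156069, minus strand) 777 kb. EPHA10 (chr1:37713880-37765133, minus strand) was 1276 kb away, EPHA4 (chr2:221418027-221574202, minus strand) 1619 kb and EPHA1 (chr7:143390289-143408856, minus strand) 1657 kb. The farthest were EPHA8 (chr1:22563489-22603595, plus strand) at 3025 kb, EPHA6 (chr3:96814581-97761532, plus strand) at 3458 kb and EPHA3 (chr3:89107621-89482134, plus strand) at 11165 kb. The copy was downstream of the start for all of them except EPHA4 and EPHA5. Over the 24563 genes of the table with an annotated start the median was 1857 kb, and 12.2% of them were at least as close as EPHA7. No member held a copy or an exact guide match within its span. EPHA10 had a lone match of LTR5HS-7 at 205 kb.

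No array guide matched without a mismatch within the 35116 RefSeq promoters (GRCh38.p14, 250 bases before to 50 after a start). The promoters of EPHA7 and EPHA5 are shown because these genes had the largest rises of the family, each at the start nearest to that of GENCODE. Capitals mark CG, which reads the same on both strands and which 96.0% of all promoters of this length held. The EPHA7 promoter had 24 CG and that of EPHA5 had 19, beside a median of 14.
EPHA7 promoter, minus strand, chr6:93419510-93419809: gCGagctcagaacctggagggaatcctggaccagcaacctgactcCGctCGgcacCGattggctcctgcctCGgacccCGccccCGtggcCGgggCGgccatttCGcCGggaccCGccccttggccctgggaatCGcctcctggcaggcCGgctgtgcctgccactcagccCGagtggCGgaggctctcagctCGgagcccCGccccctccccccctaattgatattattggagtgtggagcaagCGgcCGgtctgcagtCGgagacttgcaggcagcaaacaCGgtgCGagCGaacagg
EPHA5 promoter, minus strand, chr4:65670440-65670739: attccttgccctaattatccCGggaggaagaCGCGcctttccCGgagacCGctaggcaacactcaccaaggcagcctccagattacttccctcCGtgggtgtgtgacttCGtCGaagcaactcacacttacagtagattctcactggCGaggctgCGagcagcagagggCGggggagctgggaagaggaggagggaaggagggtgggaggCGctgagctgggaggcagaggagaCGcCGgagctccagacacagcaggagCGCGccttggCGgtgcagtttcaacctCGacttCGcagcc

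Before recruitment was considered, the members were ordered by their level per length in the 8 control libraries, as CPM per kb of gene model (RPKM). EPHA2, a receptor best known from epithelial cells, had the highest level at 15.5 ± 6.03 RPKM (SD, n = 8). EPHA1, also an epithelial receptor, had 5.56 ± 3.47 RPKM, and EPHA4, which binds ligands of both classes, had 5.06 ± 3.14 RPKM. EPHA3 followed with 1.61 ± 0.786 RPKM, EPHA8 with 0.815 ± 0.290, EPHA7 with 0.801 ± 0.343 and EPHA10, a receptor that lacks kinase activity, with 0.386 ± 0.261. EPHA6 (0.0160 ± 0.0135 RPKM) and EPHA5 (0.00889 ± 0.00617 RPKM) were close to undetected. Over both fusions together the ranges of neighbours in this order overlapped, except that every library had EPHA10 above the highest EPHA6 value. Within a fusion more neighbours were apart, among them EPHA4 and EPHA3 with either fusion. The place of EPHA10 also differed. It had a mean of 0.601 RPKM in dCas9-VPR controls, level with EPHA8 (0.601), and 0.171 in dCas9-KRAB controls, below EPHA8 (1.03). EPHA8 exceeded EPHA7 in 4 of 8 libraries, and EPHA1 exceeded EPHA4 in 5 of 8.

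**Figure D1:**
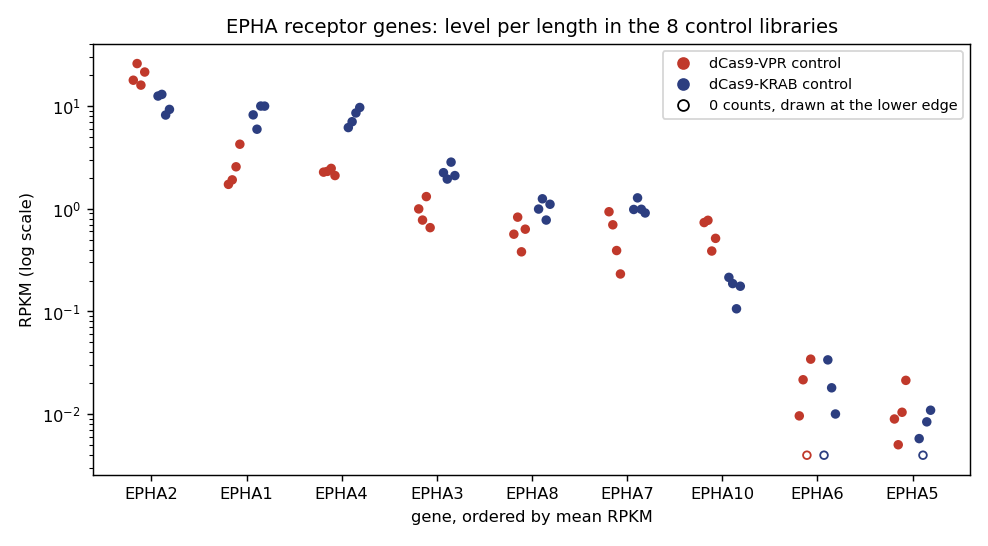
Level per length (RPKM, log scale) of the 9 EPHA genes in the 8 control libraries, 1 point per library coloured by fusion, in order of the mean, with open points at the lower edge for 0 counts. EPHA2 is highest at a mean of 15.5 RPKM, EPHA5 and EPHA6 lie far below the others, and most genes split by fusion.

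In the control libraries, all 7 members that could be tested differed between dCas9-VPR and dCas9-KRAB lines, where 57.8% of all tested genes did, 28.3% as higher and 29.4% as lower with dCas9-VPR (edgeR, array as covariate). EPHA10 and EPHA2 were higher with dCas9-VPR, by log2 differences of 1.78 (standard error 0.22) and 0.97 (0.14). The other members were lower with dCas9-VPR, EPHA4 by -1.73 (0.13), EPHA1 by -1.72 (0.18), EPHA3 by -1.26 (0.21), EPHA7 by -0.98 (0.27) and EPHA8 by -0.77 (0.22). Within dCas9-KRAB controls EPHA7 stood at 1.04 ± 0.162 RPKM (SD, n = 4), and within dCas9-VPR controls at 0.564 ± 0.313 RPKM (SD, n = 4). For EPHA7 the dCas9-VPR LTR5HS Sa libraries, at 6.99 and 5.22 CPM, lay close to the 6.80 to 9.54 CPM of the dCas9-KRAB controls, and the dCas9-VPR nontarget Sp libraries lay below them. The same control libraries entered the recruitment comparisons, so a fold change of 1 fusion is relative to another starting level than that of the other.

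With recruitment of dCas9-VPR to LTR5HS, 6 of the 8 members that could be tested rose (EPHA1, EPHA2, EPHA4, EPHA5, EPHA7 and EPHA8), EPHA3 fell and EPHA10 did not pass. EPHA5 was among the 8 only because of its counts with recruitment. Of all 16271 tested genes, 28.0% passed the same threshold (an adjusted p-value under 0.05), 15.7% as higher and 12.3% as lower. The median log2 fold change of the tested members, EPHA5 included, was 1.09, beside -0.019 for all tested genes. EPHA6 had too few counts for a test. The CPM of the 2 recruitment libraries lay outside the range of the 4 control libraries for 7 of the 8 members, which was also so for 50.0% of all tested genes (25.0% higher and 25.0% lower).

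**Figure D2:**
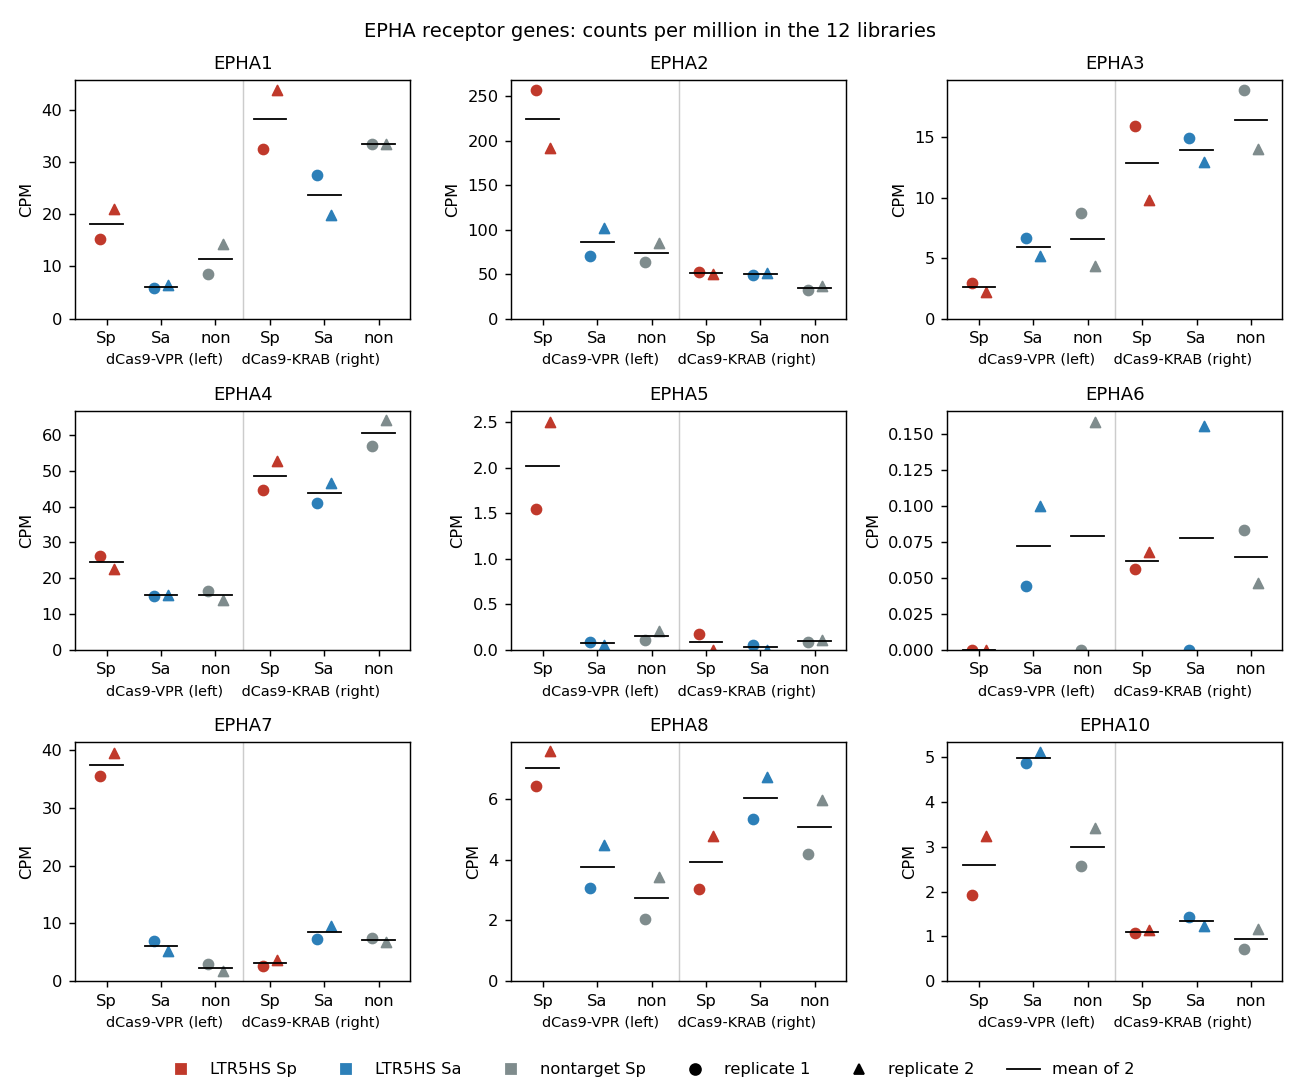
CPM of each EPHA gene in the 12 libraries, with a separate axis for each gene, colour for the array, point shape for the replicate and a bar for the mean of 2. EPHA7 stands at 35.5 and 39.5 CPM with dCas9-VPR recruitment and at 2.53 and 3.64 CPM with dCas9-KRAB recruitment, above and below all control libraries of its fusion.

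EPHA7, a receptor of neural development that also exists as truncated forms without the kinase domain, had 35.5 and 39.5 CPM in the dCas9-VPR recruitment libraries (644 and 743 counts). The LTR5HS Sa control libraries had 6.99 and 5.22 CPM and the nontarget Sp control libraries 2.93 and 1.74 CPM. Both recruitment libraries were thus far above all 4 controls, and the controls themselves were split by array. This was a rise of 3.14 on the log2 scale with a standard error of 0.42 (8.84-fold, adjusted p = 0.000958 by edgeR). Against LTR5HS Sa alone it was 2.61 and against nontarget Sp alone 4.02. A larger change in either direction was found for 2.46% of tested genes. The study chose EPHA7 for deletion of its LTR5HS from these same libraries, so its change is not independent evidence of its direction.

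EPHA5, a receptor of axon guidance, went from close to undetected to 1.54 and 2.50 CPM with recruitment (28 and 47 counts). The dCas9-VPR control libraries had 0.0885 and 0.0497 CPM with LTR5HS Sa and 0.103 and 0.210 CPM with nontarget Sp, which is between 1 and 4 counts. The groups did not overlap. Summed over libraries the ratio was 18.3 (75 against 9 counts, exact 95% counting interval 9.15 to 41.6). EPHA5 passed the filter on low counts only through the recruitment libraries, so that the fit had to give a difference, and its fitted log2 fold change of 4.12 (standard error 0.47) is given as a description. With at least 10 counts asked of every library it could not be tested, and 6 members passed.

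EPHA2 had 258 and 192 CPM with dCas9-VPR recruitment, beside 70.4 and 102 CPM in the LTR5HS Sa and 63.1 and 84.6 CPM in the nontarget Sp control libraries. The lower recruitment library was still above the highest control. It rose by 1.50 on the log2 scale (standard error 0.20, adjusted p = 0.000886 by edgeR). EPHA4 had 26.3 and 22.5 CPM beside 14.0 to 16.4 CPM in the 4 controls, a log2 fold change of 0.69 (0.14, adjusted p = 0.00635 by edgeR). The controls of both arrays lay close together. Without recruitment replicate 1 it no longer passed (log2 fold change 0.58, adjusted p = 0.0849 by edgeR).

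EPHA8, a receptor known from the developing visual system, had 6.45 and 7.61 CPM with recruitment. Its controls had 3.05 and 4.47 CPM with LTR5HS Sa and 2.06 and 3.42 CPM with nontarget Sp. The groups did not overlap, and EPHA8 rose by 1.12 on the log2 scale (standard error 0.29, adjusted p = 0.0220 by edgeR). EPHA1 had 15.2 and 21.0 CPM with recruitment, 5.80 and 6.41 CPM with LTR5HS Sa and 8.60 and 14.3 CPM with nontarget Sp. The lowest recruitment library was just above the highest nontarget library, and the log2 fold change of 1.06 (0.34) was the call nearest the threshold among the members (adjusted p = 0.0485 by edgeR). Against nontarget Sp alone EPHA1 did not pass (log2 fold change 0.68, adjusted p = 0.0877 by edgeR).

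EPHA3, a receptor of cell repulsion in the nervous system and mesenchyme, was the member that fell. It had 2.98 and 2.23 CPM with recruitment, 6.64 and 5.17 CPM with LTR5HS Sa and 8.75 and 4.36 CPM with nontarget Sp. Each recruitment library was below every control, with a log2 fold change of -1.25 (standard error 0.32, adjusted p = 0.0217 by edgeR). EPHA10 had 1.93 and 3.24 CPM with recruitment, which overlapped the 2.57 and 3.42 CPM of nontarget Sp but not the 4.87 and 5.12 CPM of LTR5HS Sa. Its log2 fold change was -0.62 with a 95% interval of -1.33 to 0.089 (adjusted p = 0.242 by edgeR), and against LTR5HS Sa alone it passed (-0.95, adjusted p = 0.0308). EPHA6 had no count in either recruitment library and between 0 and 3 counts in each control.

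The calls rested on both recruitment libraries to different degrees. The share of all genes that passed with a library left out is not given here. A change in the number of members therefore need not be particular to them. Without dCas9-VPR LTR5HS Sp replicate 1 the number of members that passed was 3 (EPHA2, EPHA5 and EPHA7), and without replicate 2 it was 4 (those and EPHA4). EPHA1 was also lost without LTR5HS Sa replicate 1 (0.91), LTR5HS Sa replicate 2 (0.94) or nontarget Sp replicate 1 (1.05). EPHA2 and EPHA7 passed whichever library was left out. Markers of other cell types moved with the same recruitment. Summed mesoderm markers (T, MIXL1, EOMES and MESP1) were 10.3 and 12.1 CPM with recruitment and 6.18 to 7.36 CPM in control, of which EOMES rose (log2 fold change 4.29), MIXL1 (0.30) and MESP1 (-0.23) did not pass and T could not be tested. Summed endoderm markers (SOX17, GATA6, GATA4 and FOXA2) were 10.0 and 10.6 CPM beside 4.16 to 6.89 CPM in control. Of these GATA6 rose by 1.29, GATA4 (0.87) and FOXA2 (-1.19) did not pass and SOX17 could not be tested. The neural genes PAX6 (-0.91), SOX1 (-1.08) and DCX (-0.65) had negative log2 fold changes that did not pass. The groups did not overlap for PAX6 and DCX, and they did for SOX1. Neither summed list had a marker at 0 in every library of either group, and of the NCCIT markers L1TD1 rose and SOX2 fell while the other 7 of 9 did not pass. The part of these shifts in the EPHA changes was not tested.

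Recruitment of dCas9-KRAB changed 1 of the 7 members that could be tested, EPHA7, which fell. The study chose EPHA7 for its opposite changes in these same libraries, so its fall is not independent evidence of direction. Of all 15520 tested genes 2.77% passed, 0.831% as higher and 1.94% as lower. EPHA7 had 2.53 and 3.64 CPM with recruitment (45 and 54 counts), 7.36 and 9.54 CPM with LTR5HS Sa and 7.39 and 6.80 CPM with nontarget Sp. Both recruitment libraries were below all 4 controls, which lay close together. It fell by 1.32 on the log2 scale with a standard error of 0.24 (adjusted p = 0.0177 by edgeR), and 2.85% of tested genes had a larger change. It held against either control array alone (-1.45 and -1.19), but did not pass without recruitment replicate 1 (-1.07, adjusted p = 0.178) or with all 12 libraries in 1 fit (-1.32, adjusted p = 0.156 by edgeR).

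The other 6 tested members did not pass, and in each of them the CPM of recruitment and control overlapped. Groups that did not overlap, as for EPHA7, were found for 23.1% of all tested genes (10.8% higher and 12.3% lower). EPHA1 had a log2 fold change of 0.42 (95% interval 0.015 to 0.83), EPHA2 of 0.29 (-0.081 to 0.66) and EPHA8 of -0.50 (-1.03 to 0.028). The interval of EPHA1 excludes 0, but its unadjusted p was 0.0705 by edgeR. EPHA3 had -0.23 (-0.67 to 0.21), EPHA4 -0.094 (-0.44 to 0.25) and EPHA10 -0.012 (-0.71 to 0.69). EPHA1 had 32.6 and 43.9 CPM with recruitment beside 19.9 to 33.5 CPM in control, EPHA2 52.0 and 50.6 beside 32.3 to 51.3 CPM, and EPHA8 3.03 and 4.79 beside 4.19 to 6.75 CPM. EPHA5 had 3 and 0 counts with recruitment and between 0 and 7 in the controls, and EPHA6 had 1 and 1 counts beside 0 to 3, so that a fall of either was not detectable at this depth. Summed mesoderm markers were 3.71 and 4.66 CPM beside 3.65 to 4.28 CPM in control, summed endoderm markers 0.945 and 1.46 beside 0.388 to 1.35, and no NCCIT marker passed (0 of 9 by edgeR, 4 at an unadjusted p under 0.05, 0 by DESeq2).

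**Figure D3:**
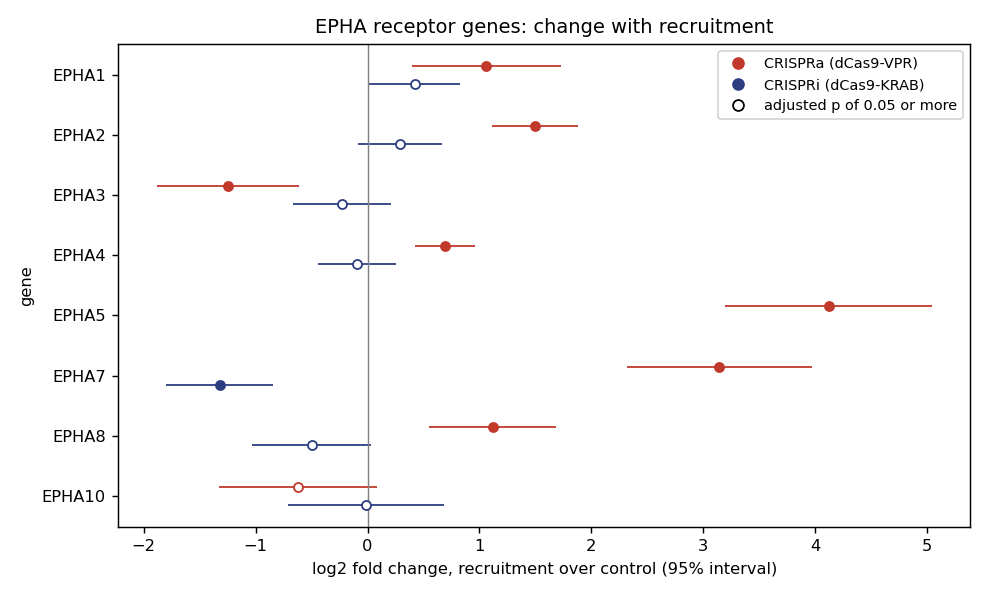
Log2 fold change of recruitment over control for the 8 EPHA genes tested with at least 1 fusion, with 95% intervals from the standard error, filled where the adjusted p-value was under 0.05. EPHA7 is at 3.14 with CRISPRa and at -1.32 with CRISPRi, and no other gene has filled points on both sides of 0.

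The effects of the fusions were then compared directly in a fit of all 12 libraries. The effect of recruitment differed for 5 of 8 tested members, all of them higher with CRISPRa, beside 21.0% of all tested genes (11.5% higher and 9.53% lower). EPHA7 had the largest difference, with a log2 fold change 4.47 higher with CRISPRa than with CRISPRi (standard error 0.57, adjusted p = 0.000101 by edgeR). The study chose EPHA7 among genes that rose with CRISPRa and fell with CRISPRi in these libraries. The direction of its difference came with that choice and is not independent evidence. EPHA8 differed by 1.62 (0.42), EPHA2 by 1.21 (0.31) and EPHA4 by 0.78 (0.23). EPHA5 entered this fit only through the dCas9-VPR recruitment libraries and had 0 to 7 counts in each dCas9-KRAB library, so that its fitted difference of 3.93 (1.13) says little of CRISPRi. With at least 10 counts asked of every library it was not tested and 4 members passed. For EPHA3 the difference was -1.02 (0.41), with an adjusted p of 0.0978 by edgeR, and of 0.0169 with the replicate number as a block. EPHA1 (0.64, interval -0.24 to 1.51) and EPHA10 (-0.61, interval -1.62 to 0.40) did not pass. The difference of EPHA7 passed whichever library was left out. Without dCas9-VPR LTR5HS Sp replicate 1, EPHA2 (0.98) and EPHA4 (0.67) were lost, and without its replicate 2, EPHA8 (1.50). Without dCas9-KRAB LTR5HS Sp replicate 1, EPHA4 (0.65) and EPHA8 (1.30) were lost, and without its replicate 2, EPHA2 (1.19). EPHA4 was also lost without either dCas9-KRAB nontarget Sp replicate (0.74 and 0.67). EPHA5 was lost without dCas9-VPR LTR5HS Sp replicate 2, dCas9-KRAB LTR5HS Sp replicate 2 or dCas9-KRAB nontarget Sp replicate 2, and without dCas9-KRAB LTR5HS Sp replicate 1 the remaining recruitment library had 0 counts of it, so that no fold is given.

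The LTR5HS Sa array was compared with the nontarget Sp array to see how far control lines of 1 fusion differed. With dCas9-VPR, EPHA7 was higher with LTR5HS Sa by a log2 difference of 1.41 (standard error 0.27, adjusted p = 0.0216 by edgeR), and it was the member that passed of 8 tested, beside 4.51% of all genes (1.90% higher and 2.61% lower). Without LTR5HS Sa replicate 1 or nontarget Sp replicate 2 it did not pass (1.18 and 1.09, adjusted p = 0.135 and 0.0653). With the replicate number as a block 3 members passed, EPHA1 being lower with LTR5HS Sa (-0.85) and EPHA10 higher (0.78). Ligand, EPHB and partner genes that passed went from 3 to 12 with the block. With dCas9-KRAB 0 of 7 members passed by edgeR, beside 0.567% of all genes (0.258% higher and 0.309% lower), 3 had an unadjusted p under 0.05, and DESeq2 called 1. That was EPHA2, higher with LTR5HS Sa by 0.56, which also passed with the block (adjusted p = 0.0307). EPHA7 had a difference of 0.27 there (interval -0.19 to 0.73). The shares of all genes given here are those of the fits without the block. Shares for the block, the unadjusted p and DESeq2 are not given.

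The genes of the count table around the EPHA7 LTR5HS were followed to show the neighbourhood of the member with the reciprocal change. Within 3 Mb of the element 9 other genes were listed, of which 4 could be tested. A second LTR5HS-like copy lay 2142 kb from the EPHA7 start, and the distances of these genes to it are not given here. Some of them may lie closer to that copy than to the EPHA7 element. Distances given here are from the EPHA7 element and need not be those to the nearest copy. BACH2, a transcription factor whose start is 2877 kb away on the side opposite to EPHA7, rose with CRISPRa by 2.31 (standard error 0.24) and also rose with CRISPRi by 0.80 (0.17, adjusted p = 0.0365 by edgeR). MANEA, an endomannosidase of the Golgi 2404 kb away on the same side as EPHA7, rose with CRISPRa by 0.85 (0.16) and had -0.70 with CRISPRi (interval -1.07 to -0.32, adjusted p = 0.110 by edgeR). MANEA-AS1, which lies next to it on the other strand, rose with CRISPRa by 1.14 (0.34) and had -0.94 with CRISPRi (adjusted p = 0.397 by edgeR). MAP3K7, a kinase of inflammatory signalling, had 0.12 and -0.26 and did not pass. By edgeR EPHA7, which the study chose for its opposite changes, was the 1 tested gene of this window that passed in opposite directions. By DESeq2 MANEA did so too (-0.69 with CRISPRi, adjusted p = 0.0192), whereas MANEA-AS1 did not pass with CRISPRa (adjusted p = 0.105). Without dCas9-VPR LTR5HS Sp replicate 1 MANEA did not pass with CRISPRa (0.84), and MANEA-AS1 with CRISPRa and BACH2 with CRISPRi each did not pass when any 1 of 5 libraries was left out. BACH2 with CRISPRi did not pass against either control array alone.

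**Figure D4:**
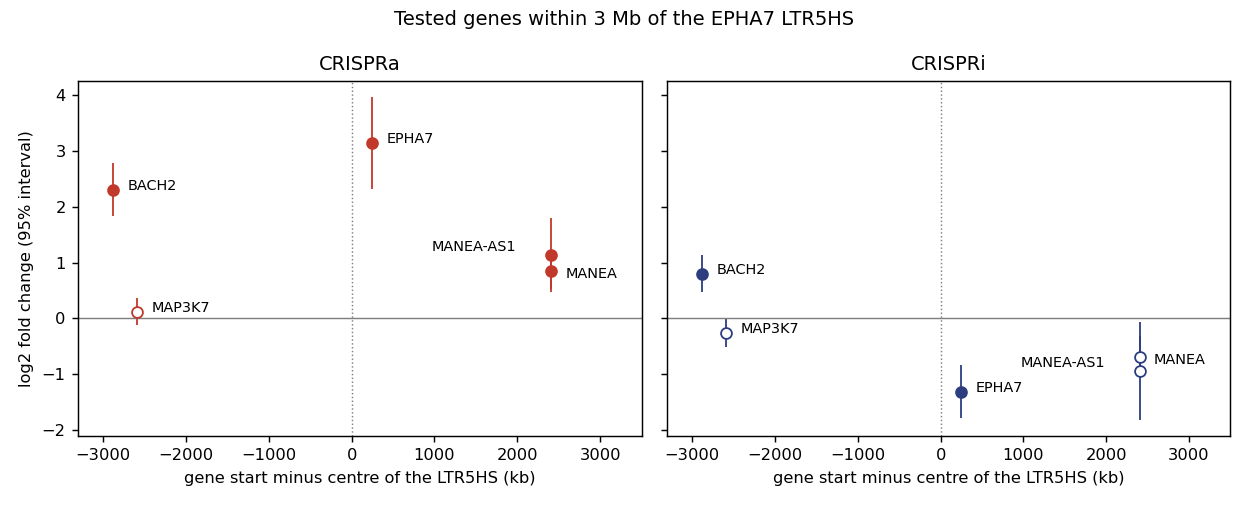
Log2 fold change of the 5 tested genes within 3 Mb of the EPHA7 LTR5HS against the distance of the gene start from the centre of the element in kb, for CRISPRa (left) and CRISPRi (right), with 95% intervals and filled points for an adjusted p-value under 0.05. EPHA7, 246 kb away, is the highest point on the left and the lowest on the right. Other LTR5HS-like copies are not drawn.

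FUT9, CASC6 and TSG1 had at most 5 counts in any library, and MIR4464 and MIR4643 had 0 in all 12. Antisense or overlapping genes of the members were looked at for shared reads. EPHA1-AS1 and ZYX overlap EPHA1 by 1073 and 823 bases on the other strand, and EPHA5-AS1 overlaps EPHA5 by 535. EPHA1-AS1 had 0 to 8 counts in dCas9-VPR libraries, where EPHA1 had 129 to 395. EPHA5-AS1 had 3 and 5 counts with dCas9-VPR recruitment and at most 1 in its controls. The strand setting of the counting is not given in the sources used here, so reads in these overlaps cannot be told apart. ZYX did not pass with either fusion (log2 fold changes 0.32 and 0.091).

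The ligands changed with CRISPRa in both directions. Of the 5 ephrin-A genes, EFNA1, the main partner of EPHA2, rose from 6.76 to 10.9 CPM in control to 73.5 and 82.1 CPM, by 3.15 on the log2 scale (standard error 0.18, adjusted p = 1.07e-05 by edgeR). EFNA3 rose by 1.85 (0.31) and EFNA4 by 0.71 (0.16), EFNA2 fell by 1.82 on the log2 scale (0.50), and EFNA5 had -0.25 and did not pass. EFNA2 and EFNA4 did not pass without either dCas9-VPR LTR5HS Sp replicate (-1.47 and -2.28 for EFNA2, 0.79 and 0.62 for EFNA4), nor EFNA2 without LTR5HS Sa replicate 1 (-1.71). Of the 3 ephrin-B genes EFNB1 rose by 1.32 (0.14), EFNB3 fell by 1.64 (0.26) and EFNB2 had 0.62 (interval 0.0021 to 1.23). EFNB2 did not pass (unadjusted p = 0.0837 by edgeR).

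Among the 5 EPHB receptors, EPHB1 rose from 1.15 to 1.99 CPM in control to 15.9 and 26.0 CPM (log2 fold change 3.83, standard error 0.28). EPHB2 fell by 1.71 on the log2 scale (0.27), from 54.4 to 98.7 CPM in control to 17.9 and 26.1 CPM. EPHB3 (0.49) and EPHB4 (0.40) did not pass, but did with the replicate number as a block (adjusted p = 0.0441 and 0.0234 by edgeR), and EPHB6, which lacks kinase activity, had 0.10. With CRISPRi 0 of these 13 ligand and EPHB genes passed by edgeR, 0 had an unadjusted p under 0.05 and DESeq2 called 0, with log2 fold changes from -0.64 (EPHB6) to 0.46 (EPHB3).

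**Figure D5:**
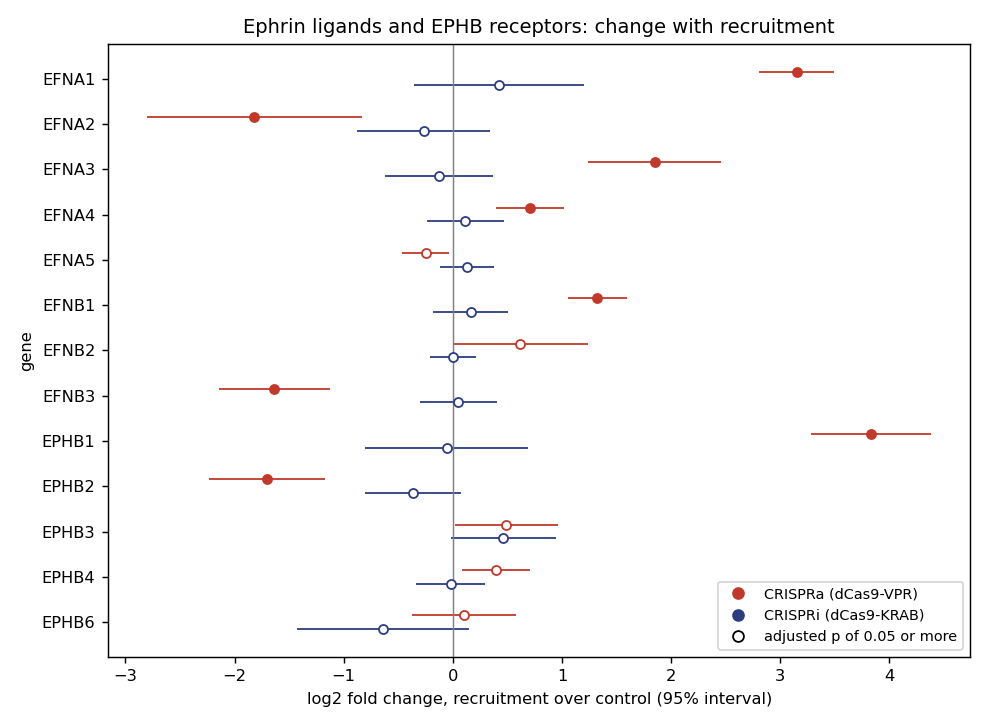
Log2 fold change of recruitment over control for the 8 ephrin ligands and 5 EPHB receptors, drawn as for the EPHA genes. With CRISPRa 8 points are filled, 5 higher and 3 lower, and with CRISPRi none is.

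Of the 25 signalling partners, 5 passed with CRISPRa. Without dCas9-VPR LTR5HS Sp replicate 1 NGEF, PTPN1 and PTPRO were lost, and without replicate 2 VAV2 as well. INPPL1, a lipid phosphatase that binds EPHA2, rose by 1.19 (standard error 0.18), PTPRO and PTPN1, phosphatases that act on Eph receptors, by 1.53 (0.33) and 0.37 (0.09), and VAV2, an exchange factor that activated Eph receptors recruit, by 0.47 (0.12). NGEF, the exchange factor ephexin, fell by 1.14 on the log2 scale (0.32). With CRISPRi VAV2 was the partner that passed, at -0.96 (0.12, adjusted p = 0.00164 by edgeR). Over the 38 ligand, EPHB and partner genes, 9 were higher and 4 lower with CRISPRa, with a median log2 fold change of 0.13, and 1 was lower with CRISPRi, with a median of -0.025. By share of genes called this list as a whole was close to all tested genes with CRISPRa (13 of 38 beside 28.0%) and with CRISPRi (1 of 38 beside 2.77%). With CRISPRa its parts differed, at 8 of 13 ligand and EPHB genes and 5 of 25 partners.

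The pattern of EPHA7 over the 12 libraries was last compared with that of every gene by Pearson's r of log2 CPM. The 5 most alike of 16673 genes were TUBB4A (0.983), FAM20A (0.981), SLITRK2 (0.976), SGK1 (0.974) and FAM159B (0.973). All 5 had positive log2 fold changes with CRISPRa (3.02 to 6.50) and negative ones with CRISPRi (-3.43 to -1.11). These directions come with the choice of genes by their likeness to EPHA7 in the same libraries and are not a separate result. Of the members, EPHA5 (0.783), EPHA8 (0.747) and EPHA2 (0.624) were most alike to EPHA7. EPHA4 (0.060), EPHA10 (0.046) and EPHA1 (0.017) had values near 0, and EPHA3 had a negative value (-0.491). Among all 16673 genes EPHA5 stood at percentile 95.2, EPHA8 at 93.8, EPHA2 at 88.9 and EPHA3 at 15.1. EPHA4, EPHA10 and EPHA1 stood at 53.8 to 56.5. These correlations describe libraries that share lines and fusions, and they carry no test.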

How the data were processed

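Counts were taken as the authors deposited them: reads per gene and library, without normalization, and a gene length in bp used here for RPKM. The submitters' processing notes name CASAVA 1.8, cutadapt 1.8.1, HISAT2 2.1.0, featureCounts 1.4.6-p2 and hg38. Which annotation and strand option the counting used is not given in the sources used here. Members and gene lists were chosen with earlier results of these data known, and EPHA7 had been chosen by the study from these libraries.

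All genes were fitted with edgeR 4.0.16 in R 4.3.3 (filterByExpr, TMM, quasi-likelihood F-test, Benjamini-Hochberg, threshold 0.05). Recruitment (n = 2) was compared with pooled control arrays (n = 4) within each fusion. Standard errors were derived from the F statistic, and 95% intervals are normal. They are narrower than the F-test implies and can exclude 0 where its p-value is over 0.05. The authors used DESeq2, and DESeq2 1.42.0 was an alternative here, with its size factors, other filters, a threshold of 0.01, other controls, left-out libraries and the replicate block. Replicate differences correlated between arrays of a fusion (Pearson's r 0.194 to 0.466 across genes). Equal numbers in the sample labels were therefore taken as pairs in the replicate block, which was an alternative. The main fits had no replicate term. CPM used TMM over 12 libraries, and log2 CPM for correlations had 0.5 added. On simulated data with 100 genes changed 4-fold and 100 changed 2-fold, edgeR recovered 87 and 51 for CRISPRa, with 8 of 146 calls on unchanged genes, and 88 and 61 for CRISPRi, with 12 of 161.

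Guide sequences came from the study's supplement and were matched to hg38. LTR5HS-like copies were hits of blastn 2.17.0 with the EPHA7 element of at least 850 bases and 80% identity. Starts were those of GENCODE 44 for 92.2% of genes, 1276 by an older symbol, and promoters those of RefSeq. Named genes are all members, ligands and EPHB receptors, at most 6 partners past the threshold per comparison, genes within 3 Mb of the element and the 5 genes most like EPHA7. A further marker sum is not reported here. Python 3.11.15 and matplotlib 3.10.9 were used for the rest.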

Additional observations from a re-analysis of the deposited data

Results flagged for a closer look

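For 5 members the effect of recruitment differed between the fusions in the test of that difference, which is why they are set apart here. The log2 fold change was higher with CRISPRa than with CRISPRi by 4.47 for EPHA7, by 3.93 for EPHA5, by 1.62 for EPHA8, by 1.21 for EPHA2 and by 0.78 for EPHA4 (edgeR, adjusted p from 0.000101 to 0.0300). EPHA7 moved in opposite directions in both fusions past the threshold, and the study had chosen it from these libraries for such changes. EPHA2, EPHA4 and EPHA8 passed with CRISPRa alone, and EPHA5 had too few counts for a test with CRISPRi. Its value rests on counts of the dCas9-VPR recruitment libraries, beside 0 to 7 counts in each dCas9-KRAB library, and with at least 10 counts asked of every library it was not tested and 4 members passed. The dCas9-VPR and dCas9-KRAB control lines differed for all 7 tested members, and the part of that difference in these values was not tested.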

How the results depend on the processing

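Results of single members under other settings numbered 659, of which 600 kept direction and side of the threshold. Of the rest 36 lost it, 9 gained it and 14 turned direction, and those 14 passed in neither fit. The settings included the threshold of 0.01, which was applied to the reported fits without a refit. EPHA7 with CRISPRa passed throughout, from 2.61 to 4.02. At an adjusted p under 0.01, 4 members passed with CRISPRa, 0 with CRISPRi (EPHA7 at -1.32), 1 in the difference between fusions, 0 between dCas9-VPR control arrays, and 8 ligand, EPHB and partner genes with CRISPRa. With all 12 libraries in 1 fit, 0 members passed with CRISPRi (EPHA7 at -1.32, adjusted p = 0.156). Ligand, EPHB and partner genes that passed with CRISPRi were 2 by DESeq2 and 2 with LTR5HS Sa alone as control. Between control arrays, DESeq2 called 2 members with dCas9-VPR and 1 with dCas9-KRAB, and 1 passed with dCas9-KRAB without a filter. The shares of all genes that passed under these settings are not given. The causes were not tested.

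With the replicate block, as the pairing of the numbers allows, 7 members passed with CRISPRa, 1 with CRISPRi, 6 in the difference between fusions and 7 between fusions in control lines, and EPHA7 had log2 fold changes of 3.17 and -1.33. The block changed the count by over 1.5 times between control arrays, to 3 members with dCas9-VPR and 1 with dCas9-KRAB. The share of all genes that passed with the block is not given.

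Leaving out 1 library gave 3 to 7 members with CRISPRa, 0 to 1 with CRISPRi, 3 to 5 in the difference between fusions, 7 between fusions in control lines, 0 to 2 between dCas9-VPR control arrays and 0 between those of dCas9-KRAB. The count with CRISPRa was 3 without dCas9-VPR LTR5HS Sp replicate 1 and 4 without replicate 2, and that with CRISPRi was 0 without dCas9-KRAB LTR5HS Sp replicate 1. Of ligand, EPHB and partner genes 7 to 15 passed with CRISPRa (8 without dCas9-VPR LTR5HS Sp replicate 1 and 7 without replicate 2) and 1 with CRISPRi. EPHA7 ranged from 2.89 to 3.51 with CRISPRa and from -1.61 to -1.07 with CRISPRi. A library left alone in its group is assumed to vary like the others. The shares of all genes that passed in these fits are not given, so the counts need not be particular to the members.

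Directions that turned were those of small changes that passed neither in the reported fit nor where they turned. With CRISPRi, EPHA4 was at 0.16 against LTR5HS Sa alone and EPHA10 at 0.19 against nontarget Sp alone. With 1 library left out, EPHA3 ranged from -0.62 to 0.065 (turned without LTR5HS Sp replicate 2), EPHA4 from -0.22 to 0.020 (without LTR5HS Sp replicate 1 or nontarget Sp replicate 2) and EPHA10 from -0.19 to 0.11 (without LTR5HS Sp replicate 1, either LTR5HS Sa replicate or nontarget Sp replicate 2). EPHB6 with CRISPRa ranged from -0.13 to 0.30 (without LTR5HS Sp replicate 2). Between dCas9-VPR control arrays, EPHA2 ranged from -0.047 to 0.49 (without LTR5HS Sa replicate 2), EPHA3 from -0.53 to 0.45 (without LTR5HS Sa replicate 2 or nontarget Sp replicate 1) and EPHA4 from -0.077 to 0.14 (without nontarget Sp replicate 2). Between dCas9-KRAB control arrays, EPHA3 ranged from -0.43 to 0.013 (without nontarget Sp replicate 1). The order by RPKM and the distances did not move beyond their spread with raw totals, medians, shorter copies or places with at least 2 guides. With 2 recruitment libraries per fusion, 2-fold changes were often missed on simulated data, and EPHA5 and EPHA6 were below what the depth of dCas9-KRAB libraries could show.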
